A study of Mus musculus with 6 samples.

Results

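The C1q/TNF-related proteins are a family of secreted proteins encoded by the C1qtnf genes, and 8 of these genes were considered: C1qtnf1, C1qtnf2, C1qtnf3, C1qtnf4, C1qtnf5, C1qtnf6, C1qtnf7 and C1qtnf12. A gene was taken as measured where a probe set carries its symbol and no other, with the brightest probe set standing for a gene that has several. This gave 7 measured genes out of 19938 named genes on the array. Each of the 7 has exactly 1 such probe set, so no choice by brightness had to be made. The only probe set of C1qtnf5 is annotated to C1qtnf5 and to Mfrp, whose spans overlap on chromosome 9, and no level of C1qtnf5 is given. The family was picked with earlier results of these arrays known, among them the low C1qtnf1 level after pA-VMO, so its p-values describe the arrays and are not independent evidence.

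The arrays hold RNA of fibro/adipogenic progenitors (FAPs), the stromal cells of skeletal muscle that can form fibroblasts and adipocytes. The cells came from male wild-type C57BL/6 mice aged 8 to 12 weeks, whose tibialis anterior muscles had all been injured with 30 µL of 50% glycerol. A vivo-morpholino (VMO), an antisense oligomer that enters cells in the animal and blocks a site on an RNA, was injected 3 days after injury, and cells were isolated 2 days later. The 3 groups received pA-VMO, directed at polyadenylation sites, 5'ss-VMO, directed at a 5' splice site, or control VMO, with 2 arrays per group and cells of 4 mice pooled per array. The study concerns a Pdgfra transcript that ends inside an intron, and no group without injury or without a VMO is part of the comparisons. The labels do not name the sequences of the oligomers, and all measurements come from pools, so differences between single mice cannot be seen.

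C1q/TNF-related proteins carry a globular C1q domain, the fold shared by complement C1q, adiponectin and tumour necrosis factor, and most have a collagen-like stalk through which they assemble into trimers and larger complexes. Several are made by fat tissue and by stromal cells and circulate in blood, where they are studied as relatives of adiponectin that act on glucose and lipid metabolism, in part through AMP-activated protein kinase. FAPs are a source of both fat cells and matrix in injured muscle, which makes these genes candidates for signals that such cells send out.

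No family member passed the test in any comparison. C1qtnf1 had the largest difference, lying 1.36-fold lower with pA-VMO than with control VMO, and C1qtnf2, C1qtnf7 and C1qtnf6 lay lower by smaller amounts. C1qtnf3 and C1qtnf12 differed from control VMO by at most 0.13 on the log2 scale in either direction, and C1qtnf4 lay slightly higher with pA-VMO. In the sentences below a level is a log2 value of a probe set after robust multi-array normalisation, a difference is one of group means on that scale, errors are standard errors from a limma fit over all 6 arrays, and adjusted p-values are two-sided Benjamini-Hochberg values over the 14953 genes tested, with a threshold of 0.05. All 7 genes lay above the filter floor of 5.209 on all 6 arrays, so no member entered the test through 1 group alone.

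**Figure D1:**
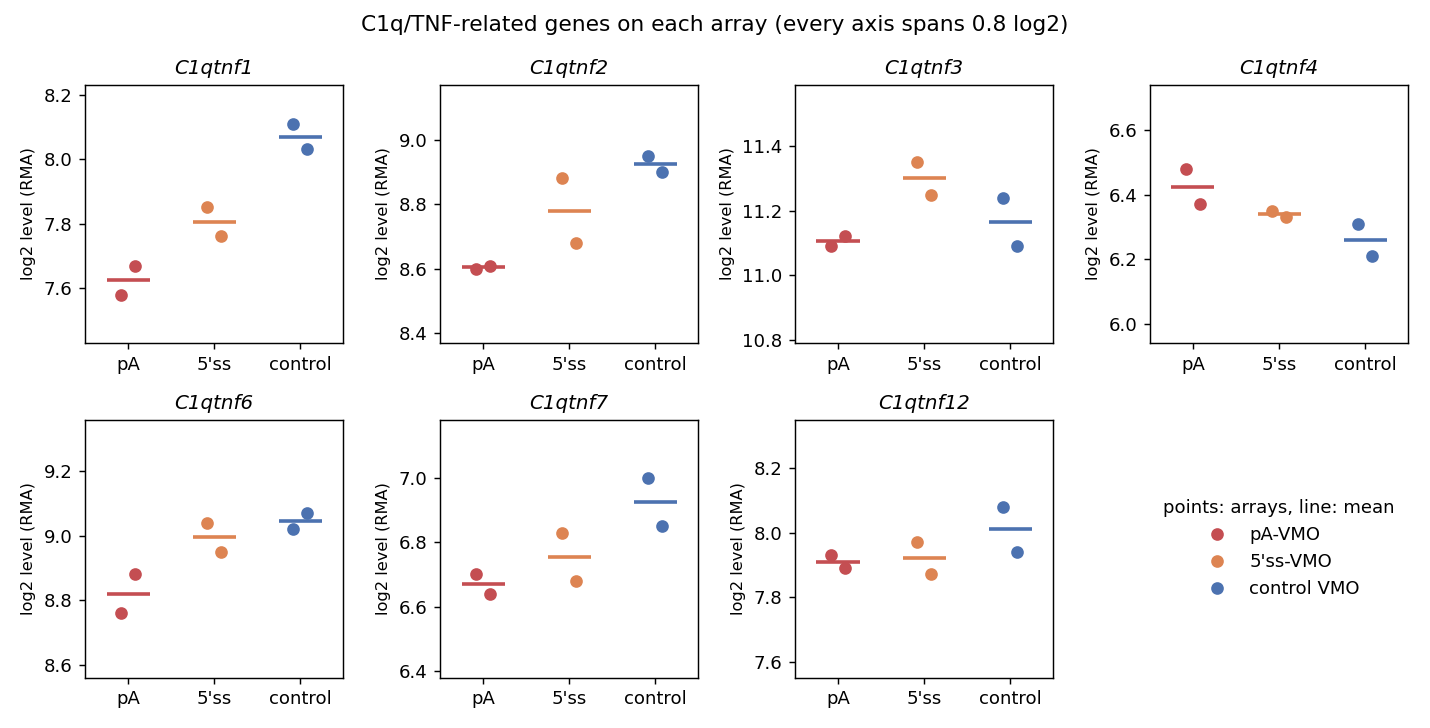
Log2 level of each measured C1q/TNF-related gene (vertical axes, each spanning the same width) on every array, grouped by treatment on the horizontal axes with pA-VMO first and control VMO last. Points are arrays and lines are group means of 2 arrays. C1qtnf1 shows 3 groups that do not overlap, with pA-VMO lowest at 7.58 and 7.67, whereas the groups of C1qtnf12 lie close together.

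C1qtnf1, also called CTRP1, is a circulating glycoprotein linked to glucose metabolism and, in human adrenal cells, to aldosterone production. Its gene lies on chromosome 11 from 118428457 to 118451782 (GRCm38.p6) and its span overlaps the noncoding gene Gm11747. The C1qtnf1 level was 7.58 and 7.67 on the pA-VMO arrays, 7.85 and 7.76 on the 5'ss-VMO arrays, and 8.11 and 8.03 on the control VMO arrays. No group overlapped another, with pA-VMO lowest, 5'ss-VMO between and control VMO highest. With pA-VMO the difference from control VMO was -0.45 ± 0.07 (SE; n = 2 arrays in each group), with a 95% interval of -0.61 to -0.29, and did not pass the test (limma adjusted p = 0.204). By its unadjusted limma p of 0.000134 C1qtnf1 took rank 8 of the 14953 genes in that comparison. With 5'ss-VMO the difference from control VMO was -0.27 ± 0.07 (limma adjusted p = 0.164). Between pA-VMO and 5'ss-VMO it was -0.18 ± 0.07 (limma adjusted p = 0.26). The 2 differences from control VMO use the same control arrays and are given side by side only.

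The call on C1qtnf1 depended on how limma models the spread. When the prior spread was allowed to follow the level of a gene (eBayes with trend), C1qtnf1 had an adjusted p of 0.0199 for pA-VMO against control VMO. That setting called 51 of all genes, 0.341% of those tested, against 1 gene, or 0.00669%, without the trend. With the trend 0 of the 7 members were called for 5'ss-VMO against control VMO, where 1.78% of all genes were, and 0 between the reagents, pA-VMO against 5'ss-VMO, where 1.32% were. Over the fits that left out 1 array the C1qtnf1 difference for pA-VMO against control VMO ran from -0.49 to -0.41. Omitting either 5'ss-VMO array gives the same result as a fit of the 2 groups alone (limma adjusted p = 0.194) and is not a separate check.

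C1qtnf2, which promotes glycogen storage and fat oxidation in cultured mouse muscle cells, lies on chromosome 11 from 43474306 to 43491525. Its level was 8.60 and 8.61 after pA-VMO, 8.88 and 8.68 after 5'ss-VMO, and 8.95 and 8.90 after control VMO. Both pA-VMO arrays lay below all others, and the 6 arrays fell in the same order as for C1qtnf1. The difference from control VMO was -0.32 ± 0.08 with pA-VMO (limma adjusted p = 0.251), 1.25-fold lower, and -0.15 ± 0.08 with 5'ss-VMO (limma adjusted p = 0.424). Leaving out 5'ss-VMO replicate 1 gave a difference of -0.25 for 5'ss-VMO, and leaving out replicate 2 of that group gave -0.05. Between pA-VMO and 5'ss-VMO it was -0.17 ± 0.08 (limma adjusted p = 0.321).

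C1qtnf7, whose loss in mice lessens the glucose intolerance of obesity, lies on chromosome 5 from 43515425 to 43619126 and overlaps the noncoding gene Gm15866. Its level was 6.70 and 6.64 after pA-VMO, 6.83 and 6.68 after 5'ss-VMO, and 7.0 and 6.85 after control VMO. The pA-VMO arrays lay below the control VMO arrays, and 1 of the 5'ss-VMO arrays lay between the pA-VMO arrays. The difference from control VMO was -0.26 ± 0.08 with pA-VMO (limma adjusted p = 0.314) and -0.17 ± 0.08 with 5'ss-VMO (limma adjusted p = 0.387). Over the fits that omitted an array the difference with 5'ss-VMO ran from -0.25 to -0.09, with -0.09 without control VMO replicate 1 or 5'ss-VMO replicate 2. Between pA-VMO and 5'ss-VMO it was -0.09 ± 0.08 (limma adjusted p = 0.644).

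C1qtnf6 restrains the alternative pathway of complement, and it lies on chromosome 15 from 78523346 to 78532170. Its level was 8.76 and 8.88 after pA-VMO, 9.04 and 8.95 after 5'ss-VMO, and 9.02 and 9.07 after control VMO. The pA-VMO arrays lay below all others, while 5'ss-VMO and control VMO overlapped. The difference of pA-VMO was -0.23 ± 0.07 from control VMO (limma adjusted p = 0.317) and -0.17 ± 0.07 from 5'ss-VMO (limma adjusted p = 0.284). With 5'ss-VMO the level differed from control VMO by -0.05 ± 0.07, with a 95% interval of -0.21 to 0.11 (limma adjusted p = 0.792).

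C1qtnf3, also known as CORS26, is secreted by fat and cartilage cells and lowers glucose output of the liver in mice. It lies on chromosome 15 from 10952119 to 10980162, and its span overlaps the noncoding genes Gm34315 and Gm52174. Its level was 11.09 and 11.12 after pA-VMO, 11.35 and 11.25 after 5'ss-VMO, and 11.24 and 11.09 after control VMO. Unlike the genes above it was highest with 5'ss-VMO, whose arrays lay above all others, and the pA-VMO and control VMO arrays overlapped. The difference from control VMO was -0.06 ± 0.08 with pA-VMO (limma adjusted p = 0.817) and 0.13 ± 0.08 with 5'ss-VMO (limma adjusted p = 0.461). Between pA-VMO and 5'ss-VMO it was -0.19 ± 0.08 (limma adjusted p = 0.266). The small difference from control VMO with pA-VMO turned to 0.02 without control VMO replicate 1.

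C1qtnf4, which has a tandem pair of C1q domains in place of the stalk and curbs food intake when given to the mouse brain, lies on chromosome 2 from 90882788 to 90890526. Its level was 6.48 and 6.37 after pA-VMO, 6.35 and 6.33 after 5'ss-VMO, and 6.31 and 6.21 after control VMO. It was the only measured member with both pA-VMO arrays above both control VMO arrays. The difference from control VMO was 0.16 ± 0.07 with pA-VMO (limma adjusted p = 0.43) and 0.07 ± 0.07 with 5'ss-VMO (limma adjusted p = 0.687). Between pA-VMO and 5'ss-VMO it was 0.09 ± 0.07 (limma adjusted p = 0.575).

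C1qtnf12, the insulin-sensitising factor adipolin, lies on chromosome 4 from 155962312 to 155966629 and overlaps the noncoding gene Gm42365. Its level was 7.93 and 7.89 after pA-VMO, 7.97 and 7.87 after 5'ss-VMO, and 8.08 and 7.94 after control VMO. The pA-VMO and 5'ss-VMO arrays overlapped, and the lower control VMO array lay just above the higher pA-VMO array. The difference from control VMO was -0.10 ± 0.07 with pA-VMO, with a 95% interval of -0.27 to 0.07 (limma adjusted p = 0.653), and -0.09 ± 0.07 with 5'ss-VMO, with an interval of -0.25 to 0.08 (limma adjusted p = 0.64). Between pA-VMO and 5'ss-VMO it was -0.01 ± 0.07 (limma adjusted p = 0.954).

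**Figure D2:**
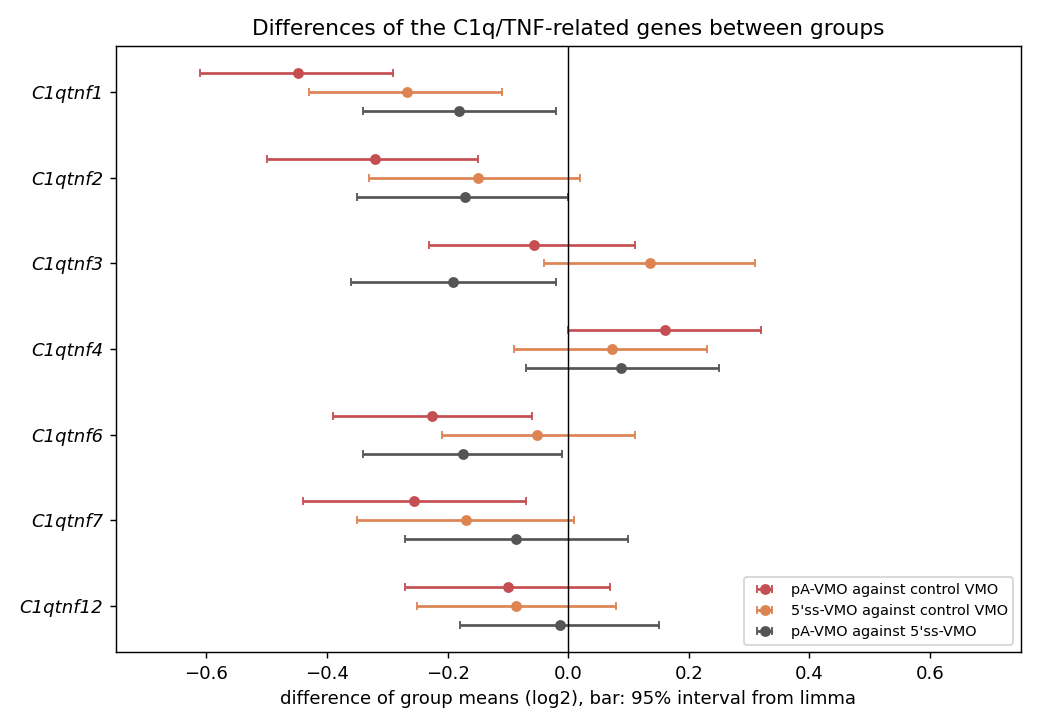
Difference of group means on the log2 scale (horizontal axis) for the 7 measured C1q/TNF-related genes (vertical axis) in 3 comparisons. Points are limma estimates and bars are 95% intervals per gene, not adjusted for the number of genes. For pA-VMO against control VMO the intervals of C1qtnf1, C1qtnf2, C1qtnf6 and C1qtnf7 lie below 0, and no gene passed the adjusted threshold.

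Counted over the family, 0 of 7 genes passed the limma test with pA-VMO against control VMO, where 0.00669% of all genes passed. An unadjusted limma p under 0.05 was reached by 5 of the 7, against 11.4% of all genes. Both pA-VMO arrays lay below both control VMO arrays for 5 of 7 genes (18.8% of all genes) and above them for 1 (24.1% of all genes). The median difference of the 7 genes was -0.226, beside 0.013 over all genes tested. These counts rest on the same arrays from which the family was picked.

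With 5'ss-VMO against control VMO 0 of 7 passed, where 0.582% of all genes passed, and 1 of 7, C1qtnf1, had an unadjusted limma p under 0.05 (13.9% of all genes). Both 5'ss-VMO arrays lay below both control VMO arrays for 3 genes (21.5% of all genes) and above them for 2 (23.2% of all genes). The median difference was -0.087, beside 0.001 over all genes. With pA-VMO against 5'ss-VMO 0 of 7 passed, where 0.0602% of all genes passed. An unadjusted p under 0.05 was reached by 3 of 7 in the same limma fit (15.9% of all genes), namely C1qtnf1, C1qtnf3 and C1qtnf6. In that comparison both pA-VMO arrays lay below both 5'ss-VMO arrays for 4 genes (23.7% of all genes) and above them for 1 (25.5% of all genes), with a median difference of -0.171 beside 0.004 over all genes.

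Sequences around start sites listed in the RefSeq promoter table (GRCm38.p6) are shown. They cover the genes that lay lower on both pA-VMO arrays, as far as the table holds them, and C1qtnf3, which did not. For C1qtnf3, C1qtnf6 and C1qtnf7 the listed start site lies inside the gene span given above, not at its upstream end. The C1qtnf6 window lies wholly inside the span of its gene, and the marked match of C1qtnf3 lies inside the span of that gene. These matches are therefore not upstream of the whole gene. Which start sites these cells use was not tested. The table matched 5 of the 8 genes, with 250 bases before and 50 after a start site; C1qtnf1, C1qtnf4 and C1qtnf12 are not among them. Capitals mark matches, on either strand, to the TATA box (TATAAA), the CCAAT box (CCAAT), the GC box (GGGCGG) and the AP-1 site (TGANTCA), and the searched motifs do not overlap in these windows.
C1qtnf2, chr11:43474056-43474355, plus strand: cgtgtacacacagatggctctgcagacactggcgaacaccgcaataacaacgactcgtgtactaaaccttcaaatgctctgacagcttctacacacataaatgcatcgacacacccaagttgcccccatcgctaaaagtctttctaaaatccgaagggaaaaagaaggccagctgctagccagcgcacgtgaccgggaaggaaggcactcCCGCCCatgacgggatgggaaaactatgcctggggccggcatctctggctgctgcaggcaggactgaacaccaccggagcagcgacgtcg
C1qtnf7, chr5:43515319-43515618, plus strand: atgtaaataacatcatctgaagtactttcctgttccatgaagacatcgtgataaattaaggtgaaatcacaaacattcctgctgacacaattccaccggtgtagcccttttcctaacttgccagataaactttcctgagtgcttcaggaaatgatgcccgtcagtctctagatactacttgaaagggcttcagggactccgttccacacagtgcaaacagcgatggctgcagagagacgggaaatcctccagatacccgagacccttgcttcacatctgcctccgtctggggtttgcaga
C1qtnf6, chr15:78529602-78529901, minus strand: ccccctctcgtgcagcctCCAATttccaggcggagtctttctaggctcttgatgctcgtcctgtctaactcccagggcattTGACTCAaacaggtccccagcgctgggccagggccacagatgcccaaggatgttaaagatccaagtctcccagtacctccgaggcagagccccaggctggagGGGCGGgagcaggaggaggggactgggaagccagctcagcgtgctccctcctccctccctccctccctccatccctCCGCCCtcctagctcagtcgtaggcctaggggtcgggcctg
C1qtnf3, chr15:10952082-10952381, plus strand: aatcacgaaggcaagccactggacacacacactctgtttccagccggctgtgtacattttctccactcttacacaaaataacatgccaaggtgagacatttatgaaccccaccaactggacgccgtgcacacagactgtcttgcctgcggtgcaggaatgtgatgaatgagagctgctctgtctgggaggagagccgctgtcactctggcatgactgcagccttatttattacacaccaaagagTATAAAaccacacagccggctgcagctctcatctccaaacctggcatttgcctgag

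The window of C1qtnf2 held 1 GC box, from base -40 to -35 relative to the start site, on the minus strand. That of C1qtnf7 held no match to these letters. That of C1qtnf6 held 2 GC boxes, from base -67 to -62 and, after the start site, from base 10 to 15. The same window held a CCAAT box from base -232 to -228 and an AP-1 site from -169 to -163. That of C1qtnf3 held a TATA box, from base -6 to -1. Of all 32851 windows of this length in the table, 35.7% held a GC box, 37.4% a CCAAT box, 13.6% a TATA box and 7.81% an AP-1 site. Of the 5 genes that lay lower on both pA-VMO arrays 3 have a window here, and no motif was shared by all 3; a match is a description of letters only.

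The genes most like C1qtnf1 over the 6 arrays were Tlr4, a receptor for bacterial lipopolysaccharide (Pearson r = 0.995), Ccdc3 (r = 0.988), Lbp, which binds lipopolysaccharide (r = 0.979), Klk1b11 (r = 0.977) and the cartilage matrix gene Comp (r = 0.976). They were the highest of 3845 genes whose levels spanned at least 0.3 over the arrays, and 75 of those genes had an r above 0.9 with C1qtnf1. Tlr4 lay at 7.49 and 7.54 after pA-VMO, 7.63 and 7.58 after 5'ss-VMO, and 7.80 and 7.77 after control VMO. The least alike were Cd68, a lysosomal protein of macrophages (r = -0.993), Wars and Rrm2 (both r = -0.981). Cd68 lay at 7.79 and 7.77 after pA-VMO, 7.57 and 7.67 after 5'ss-VMO, and 7.40 and 7.45 after control VMO, the reverse of the order of C1qtnf1. These correlations describe 6 arrays that fall into 3 groups and share their normalisation, and many genes reach such values on so few arrays.

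**Figure D3:**
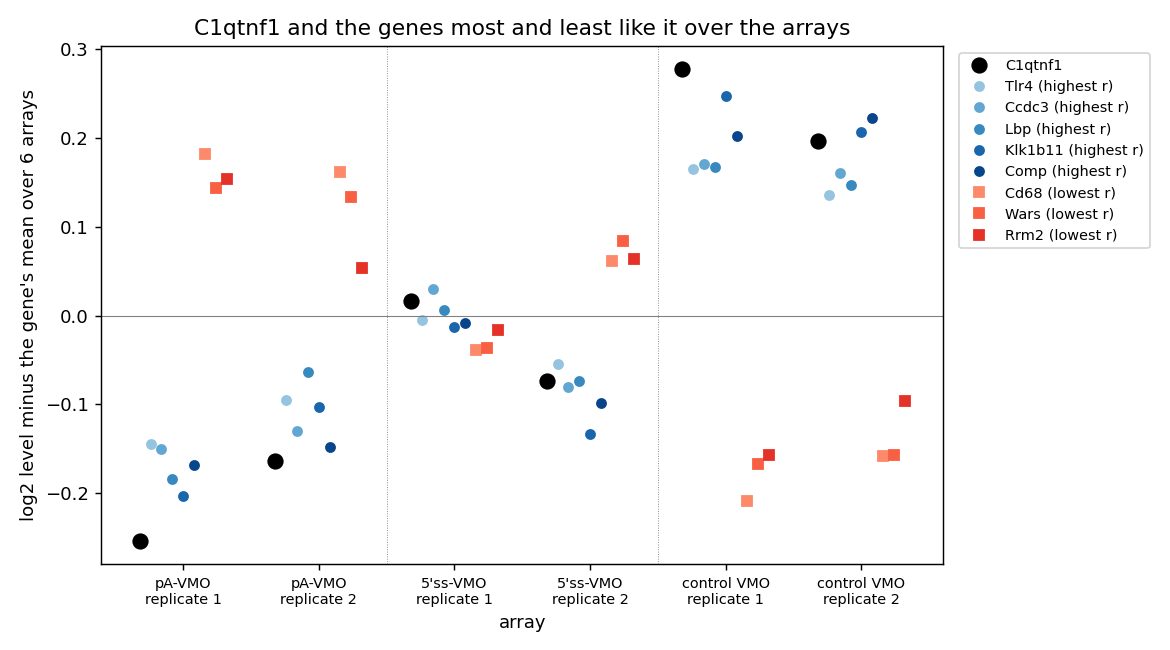
Log2 level minus the mean of each gene over the 6 arrays (vertical axis) on every array (horizontal axis), with pA-VMO first and control VMO last. Black points are C1qtnf1, blue points the 5 genes with the highest and red squares the 3 genes with the lowest Pearson r with it. The blue genes lie below 0 on both pA-VMO arrays and above 0 on both control VMO arrays, and the red genes the other way round.

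The pattern of C1qtnf7 was closest to that of Klhl24 (r = 0.996), Anpep, a surface aminopeptidase (r = 0.993), Arsk (r = 0.993), Pde5a, a phosphodiesterase of cyclic GMP (r = 0.988) and Etfrf1 (r = 0.986). Of the 3845 genes 59 had an r above 0.9 with C1qtnf7. The least alike were Zfp541 (r = -0.972), the cyclin gene Ccnd1 (r = -0.968) and Il1rn, an antagonist of interleukin-1 (r = -0.966). Zfp541 lay near the filter floor of 5.209. It was below it on both control VMO arrays (4.96 and 5.15) and on 5'ss-VMO replicate 1 (5.16). C1qtnf1 and C1qtnf7 were taken for this because their levels had the widest range among the 7 genes, 0.53 and 0.36.

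The lists of cell type markers gave the following values beside these differences. The FAP markers had mean levels over the 11 measured of 12 markers of 10.67 to 10.70 with pA-VMO, 10.67 to 10.68 with 5'ss-VMO and 10.78 to 10.82 with control VMO. Of the 11, 8 lay lower with pA-VMO than with control VMO, with a median of -0.08, and 0 passed the limma test. With 5'ss-VMO 9 of the 11 lay lower than with control VMO (median -0.07), and 1 fell, the surface peptidase gene Dpp4, by 0.52 ± 0.08 (limma adjusted p = 0.0318). The 12 macrophage markers had mean levels of 6.72 to 6.73 with pA-VMO, 6.78 on both arrays with 5'ss-VMO and 6.44 to 6.63 with control VMO. Of the 11 tested, 10 lay higher with pA-VMO (median 0.17, 0 rose) and 11 with 5'ss-VMO (median 0.23, 2 rose). With pA-VMO against control VMO the medians of the other marker lists were 0.16 for endothelial cells, 0.16 for pericytes and smooth muscle, 0.01 for myogenic cells, -0.01 for muscle fibres, 0.13 for neutrophils and 0.10 for lymphocytes, with 0 members passing in any of them. With 5'ss-VMO against control VMO 1 member rose in each of 3 lists. These were Chrna1, a subunit of the muscle acetylcholine receptor, by 0.62 ± 0.09 in the myogenic list (median 0.34, limma adjusted p = 0.0283), the endothelial cadherin gene Cdh5 by 0.70 ± 0.07 (list median 0.26, adjusted p = 0.00551) and Mcam by 0.42 ± 0.07 in the pericyte list (median 0.11, adjusted p = 0.0443). The medians of the muscle fibre, neutrophil and lymphocyte lists were 0.03, 0.01 and -0.04, with 0 members passing. For pA-VMO against control VMO, Dpp4 differed by -0.45 ± 0.08 (limma adjusted p = 0.204) and Cdh5 by 0.29 ± 0.07 (adjusted p = 0.251). In that comparison Mcam differed by 0.27 ± 0.07 (adjusted p = 0.261) and Chrna1 by -0.07 ± 0.09 (adjusted p = 0.809). Leaving out either control VMO array ended the calls of Dpp4, Chrna1, Cdh5 and Mcam, with limma adjusted p-values up to 0.213, 0.201, 0.0659 and 0.234 over the arrays left out. Dpp4 also lost its call without either 5'ss-VMO array, Chrna1 without replicate 1 of that group, and Mcam whichever of the 6 arrays was omitted. For 5'ss-VMO against control VMO, omitting either pA-VMO array gives the same result as a fit of the 2 groups alone. With no filter Dpp4, Chrna1 and Mcam did not pass (limma adjusted p = 0.0982, 0.0916 and 0.128). In such bulk samples fewer cells of a type and less RNA per cell cannot be told apart, and the part of the cell mixture in the C1qtnf1 difference was not tested. Pdgfra itself lay at 11.29 and 11.32 after pA-VMO, 11.31 and 11.29 after 5'ss-VMO, and 11.37 and 11.24 after control VMO. Whether the probe set used tells the shortened from the full Pdgfra transcript was not examined, so these levels are not assigned to either.

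Of 7 tenocyte markers 1 fell against control VMO with either reagent, the proteoglycan gene Kera, by 1.32 ± 0.12 with pA-VMO (limma adjusted p = 0.0232; list median 0.03) and by 0.69 ± 0.12 with 5'ss-VMO (limma adjusted p = 0.0474; list median -0.02). Both Kera calls were lost when any single control VMO or pA-VMO array was omitted, and the 5'ss-VMO call also without replicate 1 of that group. Over the arrays left out the Kera difference ran from -1.45 to -1.19 with pA-VMO and from -0.87 to -0.52 with 5'ss-VMO. For the 5'ss-VMO call, omitting either pA-VMO array gives the same result as a fit of the 2 groups alone. With no filter neither call passed (limma adjusted p = 0.134 and 0.138). Adipoq, the adiponectin gene and a defining adipocyte marker, lay at 4.88 and 4.75 after pA-VMO, 4.26 and 4.49 after 5'ss-VMO and 4.43 and 4.75 after control VMO, below the filter floor on every array. Of the 5 adipocyte markers tested 0 passed in any comparison. Against control VMO their median was 0.04 with pA-VMO, with 3 of the 5 higher, and -0.13 with 5'ss-VMO, with 1 higher. Between the reagents, pA-VMO against 5'ss-VMO, it was 0.13, with all 5 higher.

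Among other genes with a C1q domain, the complement genes C1qa and C1qc rose with 5'ss-VMO and 0 passed with pA-VMO. Of 22 listed genes 17 were tested, and 0 passed the limma test for pA-VMO against control VMO, with 11 of 17 higher and a median of 0.03. With 5'ss-VMO 2 rose, the complement genes C1qc by 0.50 ± 0.07 (limma adjusted p = 0.0249) and C1qa by 0.39 ± 0.07 (limma adjusted p = 0.0472), both also in the macrophage list above. C1qb, the remaining gene of the complement C1q complex, lay 0.50 ± 0.13 above control VMO and did not pass (limma adjusted p = 0.146). C1qc lay at 6.86 and 6.88 with 5'ss-VMO and at 6.30 and 6.44 with control VMO, and C1qa lay at 7.63 and 7.64 with 5'ss-VMO and at 7.19 and 7.30 with control VMO. C1qa lost its call whichever of the 6 arrays was left out, with a difference of 0.33 to 0.45. C1qc missed the threshold without either array of 5'ss-VMO or of control VMO, with a difference of 0.43 to 0.57 over the arrays left out. With no filter neither passed (limma adjusted p = 0.136 for C1qa and 0.0847 for C1qc), and C1qa also missed the threshold with a replicate block (0.0571). In a fit of the 2 groups alone C1qa did not pass (limma adjusted p = 0.0785). For this comparison, leaving out a pA-VMO array gives that same result and is not a separate check. Col8a1 and Col8a2, short-chain collagens of vessel walls and basement membranes that end in a C1q domain, lay 0.28 and 0.26 above control VMO with 5'ss-VMO (limma adjusted p = 0.116 and 0.173). With pA-VMO the same genes lay 0.23 and 0.01 above it (limma adjusted p = 0.281 and 0.967). C1qtnf9, a family member outside the 8 genes, lay below the filter floor on average and was not tested.

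**Figure D4:**
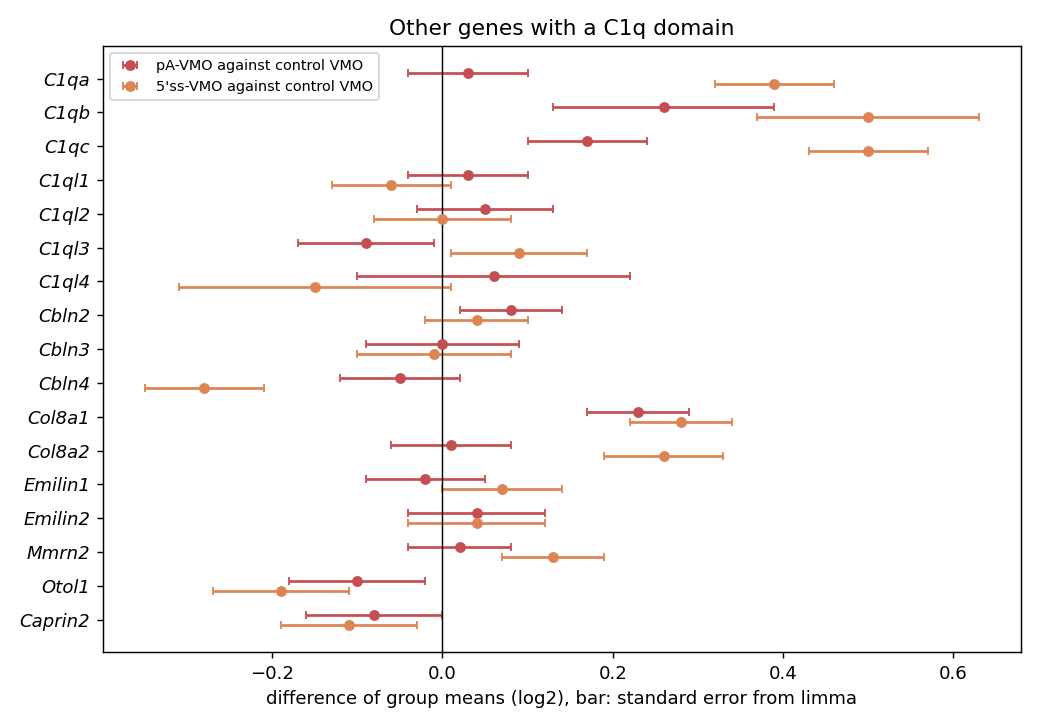
Difference from control VMO on the log2 scale (horizontal axis) for the 17 tested genes with a C1q domain outside the C1qtnf family (vertical axis), with pA-VMO above 5'ss-VMO for each gene. Points are limma estimates and bars are standard errors. The complement genes C1qa and C1qc, at 0.39 and 0.50 with 5'ss-VMO, are the 2 that passed the test.

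Receptors and partners of C1q-domain proteins differed little between the groups. Of 14 listed genes 10 were tested, and 0 passed in any of the 3 comparisons, with a median difference of -0.04 for either reagent against control VMO and of 0.01 between the reagents, pA-VMO minus 5'ss-VMO. The adiponectin receptor gene Adipor1 lay at 9.42 and 9.35 after pA-VMO, 9.38 and 9.44 after 5'ss-VMO and 9.47 and 9.41 after control VMO. Insr, the insulin receptor gene, had the smallest p with pA-VMO against control VMO and differed by -0.18 ± 0.07 (limma adjusted p = 0.368), followed by the integrin gene Itgav at 0.18 ± 0.07 (adjusted p = 0.407). For 5'ss-VMO against control VMO, where 3 of the 10 lay higher, Cd93 had the smallest p and differed by 0.27 ± 0.11 (limma adjusted p = 0.314). With pA-VMO Cd93 differed by 0.20 ± 0.11 (adjusted p = 0.512). Of the 10 subunits and upstream kinases of AMP-activated protein kinase 0 passed in any comparison. The beta subunit gene Prkab2 lay 0.27 ± 0.07 above control VMO with 5'ss-VMO (limma adjusted p = 0.157) and the upstream kinase gene Stk11 0.18 ± 0.07 above it (adjusted p = 0.294). Of the 12 listed factors secreted by adipocytes 7 were tested, and 0 passed in any comparison. Nampt had the smallest p among them with pA-VMO against control VMO, at -0.14 ± 0.06 (limma adjusted p = 0.449), and the resistin gene Retn lay at 0.15 (adjusted p = 0.529).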

How the data were processed

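RNA of the 6 samples was measured on Affymetrix Mouse Gene 1.0 ST arrays from 100 ng of total RNA. The deposited log2 values were made by the authors with Affymetrix Expression Console by RMA, per the submitters' processing notes, with no version or setting named there. The method equalises value distributions between arrays and therefore hides changes in total RNA per cell. Of 35556 probe sets 21789 have 1 gene symbol, 1621 several and 12146 none, and only the first kind was used. Of the 19938 genes so named, those with a mean below the 25th percentile were left out, which left 14953.

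The 3 groups were compared in limma 3.58.1 (R 4.3.3, eBayes without trend), using all 6 arrays and no block. The number of arrays limits the precision: exact permutation, 2 arrays against 2, has 0.333 as its smallest p. Labels call the samples separate pools of mice; no array batch is labelled. The procedure was tested on simulated data, in 20 runs with 200 of the 14953 genes changed for 5'ss-VMO against control VMO. It recovered 63.7% of changes of 0.5 log2, 94% of changes of 1 and 99.8% of changes of 2. On average 3.5% of its calls were false. The adjusted p of a gene depends on how many other genes change, and pA-VMO against control VMO, with 1 gene called, was not simulated. The recovered shares therefore do not carry over to that comparison, where fewer changes of a given size may be called. Every member difference in the real data was smaller than 0.5, so a change of such a size can go uncalled. Members, gene lists and named genes were chosen with earlier results of these data known. All members were named, from each list the called genes and, in some lists without a call, those with the smallest p, and for likeness the 5 highest and 3 lowest Pearson r. Adipor1, Adipoq, C1qb, Col8a1, Col8a2 and, in the tenocyte list, Comp and Tnmd were named after their values were seen. Alternatives were other filters, eBayes with trend or robust, 2-group fits, a replicate block, averaged probe sets, median-centred arrays and leaving out each array.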

Additional observations from a re-analysis of the deposited data

How the results depend on the processing

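The count of called members was 0 in each comparison. It was 1 with eBayes with trend for pA-VMO against control VMO, through C1qtnf1 (limma adjusted p = 0.0199), and 0 under the other alternatives tried. Only median-centring, or leaving out an array of a group compared, can change the difference of a member. The other alternatives leave it as it is, so most of the 294 recomputed differences could not change direction, and their count does not measure stability. Of the 294 differences 291 kept their direction. The 3 that did not were C1qtnf3 for pA-VMO against control VMO (0.02 without control VMO replicate 1, range -0.14 to 0.02 over the arrays left out) and C1qtnf12 between the reagents (0.01 without pA-VMO replicate 2 and 0.04 when the first 5'ss-VMO array was left out, range -0.06 to 0.04); the cause was not tested. The counts of all called genes moved more. For pA-VMO against control VMO 1 gene was called, 0 with no filter, 51 with the trend and 0 to 2 when 1 array was left out. For 5'ss-VMO against control VMO it was 87, with 24 under no filter, 181 with a filter at the 50th percentile, 266 with the trend and 8 to 76 when 1 array was left out. For pA-VMO against 5'ss-VMO it was 9, with 3 under no filter, 102 at the 50th percentile, 197 with the trend, 15 with averaged probe sets, 102 with median-centred arrays and 1 to 18 when 1 array was left out. A filter changes the number of genes over which p-values are adjusted. With the replicate number as a block the counts were 1, 90 and 23, and 0 members were called; the labels do not say that a number marks a shared batch, and the deviations of same-numbered arrays correlated at -0.102, 0.021 and -0.035. With 2 arrays per group the median standard error of a difference was 0.074, and small differences moved when an array was left out: against control VMO, that of C1qtnf3 with 5'ss-VMO was 0.21 without control VMO replicate 1 and 0.06 without control VMO replicate 2, and that of C1qtnf12 was -0.03 and -0.17 with pA-VMO and -0.02 and -0.15 with 5'ss-VMO under the same omissions. The calls of C1qa, Mcam and Kera with 5'ss-VMO were lost with a replicate block (limma adjusted p = 0.0571, 0.056 and 0.0549).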
